A study of Mus musculus with 36 samples.

Results

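The 6 tumors compared here were the control tumors that grew in NSG mice, 3 from 67NR cells and 3 from 66cl4 cells, among 36 tumors of the series. They were chosen by their titles, cell line and host, with no measured value. Both lines come from a mammary tumor of the BALB/c lineage. 67NR forms primary tumors that do not spread, and 66cl4 reaches the lung. 67NR control NSG tumors grew from 100000 cells and were taken on day 21, and 66cl4 control NSG tumors grew from 10000 cells and were taken on day 28, all in the 4th mammary fat pad of female mice. Cell line, cell dose and day therefore cannot be told apart. All 6 carried a retroviral control hairpin, so they are derivatives of the parental lines, and which control hairpin each tumor carried was not used here. NSG mice combine the NOD background with the scid mutation and loss of *Il2rg*, and lack T, B and NK cells. Each tumor came from 1 mouse and was read on 1 array after necrotic tissue was cut away. Tumors of the same lines served for comparison: 3 67NR and 3 66cl4 control tumors from BALB/c mice, which have lymphocytes, and 6 67NR and 6 66cl4 BPTF KD tumors from NSG mice, in which the chromatin remodeling subunit BPTF is knocked down. Genes are given as log2 array levels, so a difference of 1 is a doubling of the level.

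A transplanted tumor is a mixture. Its tumor cells belong to the injected line, while its vessels, fibroblasts, macrophages and neutrophils belong to the mouse. Mammary tumor cells can keep epithelial traits, such as paired keratins that form their filaments, or take on mesenchymal ones, such as the transcription factors Snail and Zeb, which bind E-box sequences in epithelial promoters. EGF family ligands act on tumor cells and their neighbours through ErbB receptors and the MAPK pathway. In bulk tumors, fewer cells of a type and less RNA per cell cannot be told apart.

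67NR and 66cl4 tumors differed widely. Of 12394 genes, 2224 (17.9%) were higher and 2264 (18.3%) lower in 67NR tumors (limma, adjusted p under 0.05), and 750 (6.05%) were higher and 673 (5.43%) lower by at least 1 log2 unit. The counts in gene lists are read against these shares. All 67NR tumors lay above all 66cl4 tumors for 2960 genes (23.9%) and below them for 3134 (25.3%). The median difference of all genes was -0.02. Arrays correlated at 0.990 to 0.9954 within 67NR, 0.9859 to 0.9925 within 66cl4 and 0.9513 to 0.9639 between the lines. The difference between the 3′ and 5′ control probe sets of actin and Gapdh is a measure of RNA integrity that is higher in degraded RNA. Its mean over both was 0.54, 0.46 and 0.465 in 67NR tumors and 0.615, 0.69 and 0.625 in 66cl4 tumors. The groups did not overlap in this mean (difference -0.16, exact permutation p = 0.1, the smallest that 3 against 3 tumors allow, two-sided). The gap lay in actin (1.03, 0.91 and 0.89 in 67NR tumors against 1.23, 1.38 and 1.24 in 66cl4 tumors). Gapdh stayed near 0 (0.05, 0.01 and 0.04 against 0.0, 0.0 and 0.01), so the 2 controls did not give the same picture. With the mean as a covariate 61 genes were higher and 38 lower, and its part in the results was not tested. All p values measure only the spread between these tumors, which share 1 harvest day per line.

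Single tumors stood apart in genes of neighbouring tissues, which were picked out after their values were seen. 66cl4 tumor 1 was high in genes of mammary epithelium and fat, with *Elf5* at 7.01 against 3.97 to 4.03 in the other 66cl4 tumors, *Krt19* at 7.97 and *Adipoq* at 11.71. 66cl4 tumor 2 was high in genes of cornified skin, with *Flg* at 8.21 and *Krt2* at 7.74 while the other 5 tumors were between 2.92 and 3.83. *Acta1*, the actin of skeletal muscle, was at 8.61, 5.84 and 8.13 in 67NR tumors and 5.43, 8.29 and 5.28 in 66cl4 tumors, high in 3 tumors across both lines. 66cl4 tumor 3 was lowest of all 6 in several fibroblast genes, among them *Dcn* (9.19), *Efemp1* (6.19), *Lox* (7.07) and *Mmp2* (6.64). 67NR tumor 1 had hair keratins (*Krt25* at 7.17, 3.43 to 4.00 elsewhere), and 67NR tumor 2 was lowest in *Adipoq* (4.63). For these tissues, most of the genes named are therefore given tumor by tumor.

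3 stretches of DNA are shown as examples from the epithelial and ErbB ligand results. They are the 250 bases before the start of *Krt8* and *Krt18*, the paired keratins of simple epithelia, which lie next to each other, and of *Btc*, which encodes the ErbB ligand betacellulin. They were taken from RefSeq (GRCm38.p6), are written 5′ to 3′ on the gene's own strand, and carry in capitals the E-box hexamer CAGGTG or its reverse complement CACCTG. They lie at chr15:102004343-102004592 (minus strand), chr15:102027966-102028215 (plus strand) and chr5:91402995-91403244 (minus strand).
Krt8: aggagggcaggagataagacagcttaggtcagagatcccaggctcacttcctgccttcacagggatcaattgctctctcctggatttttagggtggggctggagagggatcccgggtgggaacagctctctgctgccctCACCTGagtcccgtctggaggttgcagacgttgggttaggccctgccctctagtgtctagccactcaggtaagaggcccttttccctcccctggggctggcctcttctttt
Krt18: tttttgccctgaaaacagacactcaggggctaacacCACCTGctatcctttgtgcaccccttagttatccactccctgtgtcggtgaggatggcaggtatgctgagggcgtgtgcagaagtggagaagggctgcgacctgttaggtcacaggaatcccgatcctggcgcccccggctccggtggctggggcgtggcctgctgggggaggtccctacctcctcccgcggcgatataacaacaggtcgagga
Btc: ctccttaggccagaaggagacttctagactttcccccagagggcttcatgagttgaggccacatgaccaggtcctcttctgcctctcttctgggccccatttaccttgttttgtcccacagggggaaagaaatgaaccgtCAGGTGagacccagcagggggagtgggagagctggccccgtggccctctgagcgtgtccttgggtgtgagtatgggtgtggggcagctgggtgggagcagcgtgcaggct
Each holds 1 hexamer, which begins 111, 214 and 110 bases before the gene start in the order shown. The same letters, searched on both strands in the promoters of the RefSeq table, occur in 17.2% of 32851 promoters and in 19.4% of the 9888 tested genes that have one. They occur in 3 of 9 of the largest increases and 2 of 9 of the largest decreases that have a promoter in the table. The stretches before the ligand genes *Ereg* and *Hbegf* are not shown, so the 3 shown do not stand for all genes of these results. A match is a description of the letters and does not show that a factor binds there.

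The paired epithelial keratins were much lower in 67NR tumors. *Krt8* was at 7.07, 7.22 and 6.56 in 67NR tumors and at 13.07, 13.09 and 13.39 in 66cl4 tumors, 75.2-fold lower in 67NR (log2 -6.23 ± 0.19 SE, adjusted p = 7.96e-06). Its partner *Krt18* was at 5.38, 4.45 and 4.85 in 67NR tumors, against 9.35, 8.42 and 8.0 in 66cl4 tumors (-3.70 ± 0.36 SE, adjusted p = 0.000375). All 66cl4 tumors lay above all 67NR tumors for both. *Cd24a*, a surface protein by which mammary epithelial cells are sorted, was at 8.22, 7.61 and 8.03 in 67NR tumors and 13.17, 12.90 and 12.96 in 66cl4 tumors, a 33.3-fold lower level (adjusted p = 8.3e-06). Likewise *Krt8* (-6.47), *Krt18* (-3.92) and *Cd24a* (-3.76) were lower in 67NR tumors of BALB/c mice.

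Most of the epithelial list did not follow the keratins. Of 50 measured genes of keratins and junctions, 2 were higher and 6 lower in 67NR tumors (list median -0.20), and 32 of the 50 stayed, in all 6 tumors, at or under the highest level of Y-linked genes, which female mice lack. The 6 Y-linked genes read between 3.02 and 6.62, and 4166 of all genes (33.6%) were at or under 6.62 in all 6 tumors. Each probe set has its own background, so this level is only a rough guide. Without 66cl4 tumor 3, 10 of the epithelial genes were lower. The others lower in 67NR were *Spint2*, a protease inhibitor of epithelial surfaces (-1.28), *Ppl*, a plakin of cell junctions (-1.41), *Itgb4* of hemidesmosomes (-0.74) and *Tjp1* of tight junctions (-0.60). *Itgb4* and *Tjp1* each lost the call in 4 of 6 fits that left out 1 tumor. *Itga6*, the laminin-binding partner of *Itgb4*, was higher (1.35 ± 0.13 SE, adjusted p = 0.000322), as was the desmosomal *Pkp3* (0.98). *Cdh1*, which encodes E-cadherin, was at 5.23, 4.93 and 4.91 in 67NR tumors and 5.97, 4.86 and 3.81 in 66cl4 tumors, where the groups overlapped. *Epcam* was at 6.02, 5.17 and 4.75 in 67NR tumors against 8.73, 7.09 and 5.96 in 66cl4 tumors and did not pass (adjusted p = 0.0518). Its highest value fell in 66cl4 tumor 1, the tumor with mammary and fat genes.

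67NR tumors instead had high levels of ErbB ligands. *Ereg*, which encodes epiregulin, was at 10.84, 9.19 and 11 in 67NR tumors and at 3.99, 4.01 and 3.57 in 66cl4 tumors. This was the largest increase of all genes past the threshold (89.7-fold, log2 6.49 ± 0.44 SE, adjusted p = 0.00011). *Btc* was at 10.12, 9.80 and 10.58 in 67NR tumors, against 5.59, 5.97 and 5.95 in 66cl4 tumors (20.1-fold higher). *Hbegf*, the heparin-binding ligand, was at 11.59, 10.73 and 11.71 in 67NR tumors, against 8.04, 8.85 and 9.16 in 66cl4 tumors (6.32-fold higher). No 67NR tumor fell into the range of the 66cl4 tumors, and tumor 2 was the lowest of the 67NR tumors for all 3 ligands. The other ligands measured, among them *Tgfa* (-0.12), *Egf* (-0.35) and *Nrg4* (-0.46), did not pass. Among the receptors, *Erbb3* was lower in 67NR (-0.86 ± 0.13 SE, adjusted p = 0.00199), although its other probe set gave 0.11. *Ereg* and *Btc* stand in 1 cluster on chromosome 5, which also holds *Epgn*, another ErbB ligand (-0.03).

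**Figure D1:**
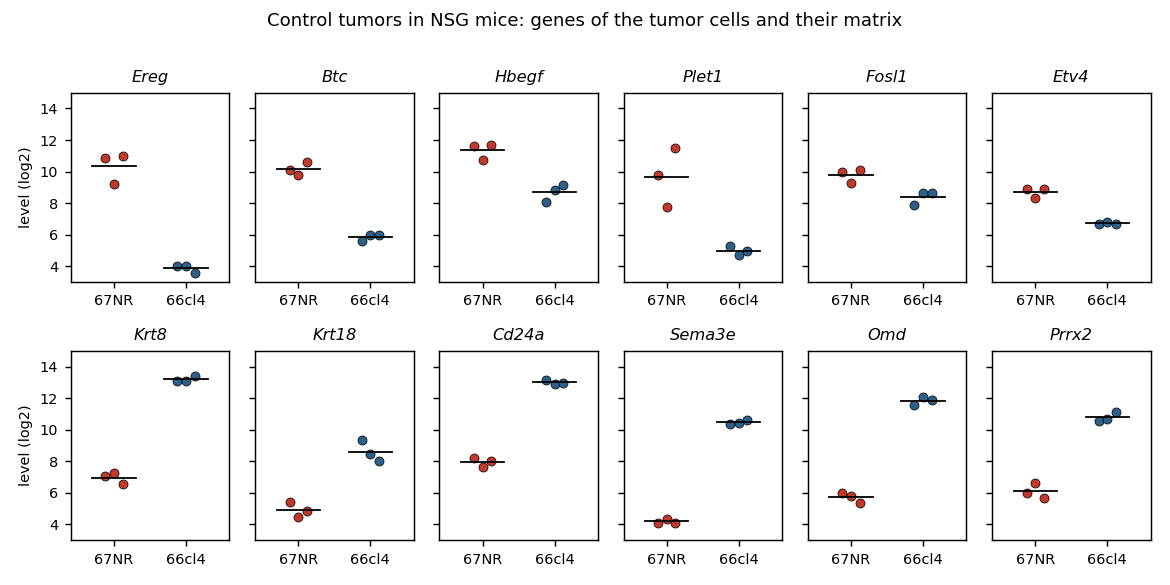
Levels (log2, vertical axis) of 12 genes in each of 3 67NR (left, red) and 3 66cl4 (right, blue) control tumors of NSG mice. Each point is 1 tumor and each line a group mean. For all 12 genes the groups are separate, with the top row higher and the bottom row lower in 67NR tumors. Of all genes, 23.9% lay above and 25.3% below in 67NR without overlap. Several of the 12 were picked by a rule that required no overlap.

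Genes that respond to MAPK signalling were mostly higher in 67NR tumors as well. Of 15 measured targets and feedback genes, 9 were higher, 1 was lower and 5 did not pass (list median 0.84, against -0.02 for all genes). *Etv4*, an ETS factor induced by the pathway, was at 8.89, 8.31 and 8.92 in 67NR tumors and 6.68, 6.82 and 6.68 in 66cl4 tumors (1.98 ± 0.17 SE, adjusted p = 0.000269). *Etv5* (1.23), the AP-1 subunit *Fosl1* (1.43), *Myc* (1.43), the early response gene *Ier3* (1.52) and the ERK phosphatases *Dusp6* (0.82) and *Dusp7* (0.87) were higher too. The exception was *Spry1*, a feedback inhibitor of receptor tyrosine kinases, at 7.53, 7.80 and 7.27 in 67NR tumors and 9.75, 10.82 and 11.46 in 66cl4 tumors (8.84-fold lower, adjusted p = 0.000902). In BALB/c mice 5 of these genes were higher and 1 lower, with a median of 0.32 (over all genes 13.5% were higher and 12.6% lower there).

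Mesenchymal genes differed in both directions, more often higher in 67NR tumors. Of 31 transition factors and markers, 13 were higher and 5 lower in 67NR tumors (median 0.39). In BALB/c mice the balance was the other way, with 5 higher and 10 lower (median -0.14), and for 11 the line difference was greater in NSG than in BALB/c mice by the test of that difference. *Snai1* (1.17 ± 0.15 SE) and *Snai2* (1.21 ± 0.17 SE), which repress epithelial genes, were higher, as were the homeobox factor *Prrx1* (1.26), N-cadherin *Cdh2* (1.44), fibronectin *Fn1* (1.12), integrin *Itgav* (0.76) and *Sparc* (1.13). *Prrx2*, the paralog of *Prrx1*, went the other way, at 5.99, 6.60 and 5.63 in 67NR tumors against 10.53, 10.69 and 11.10 in 66cl4 tumors (-4.70 ± 0.26 SE, 26.0-fold lower, adjusted p = 5.7e-05). The forkhead factor *Foxc1* was also lower (-1.46), while its paralog *Foxc2* was at 6.12, 7.71 and 5.84 in 67NR tumors against 3.53, 3.56 and 3.58 in 66cl4 tumors (3.0 ± 0.43 SE, adjusted p = 0.00173). Others of the list, also higher, were *Zeb1* (0.98) and vimentin *Vim* (0.85). *Foxc2*, *Zeb1* and *Vim* were named after their values were seen.

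Single growth factors of other families differed by large steps. Of 37 ligands and receptors, 11 (29.7%) were higher and 6 (16.2%) lower in 67NR, against 17.9% and 18.3% of all genes. Without 67NR tumor 1, 7 were higher, and in BALB/c mice 4 were higher and 9 lower. *Fgfr1*, an FGF receptor, was at 10.34, 10.12 and 10.14 in 67NR tumors and 7.93, 8.12 and 7.41 in 66cl4 tumors (5.21-fold higher, adjusted p = 0.000174). *Igf2r*, which clears IGF2 (2.38 ± 0.21 SE), the IGF carrier *Igfbp3* (2.56 ± 0.36 SE), the activin subunits *Inhba* (1.48) and *Inhbb* (1.05) and the KIT ligand *Kitl* (1.27) were higher. *Bmp4* was at 5.59, 5.32 and 4.81 in 67NR tumors and at 8.60, 8.95 and 9.10 in 66cl4 tumors (12.5-fold lower, adjusted p = 7.89e-05), and *Fst*, which binds activin, was lower (-1.06 ± 0.14 SE). Of 34 Wnt pathway genes, 2 (5.88%) were higher and 5 (14.7%) lower, both under the shares of all genes, and 1 was higher without 67NR tumor 1 or 2 or 66cl4 tumor 1 or 2. *Wnt5a* was at 7.04, 7.94 and 6.05 in 67NR tumors against 4.45, 4.29 and 4.04 in 66cl4 tumors (2.75 ± 0.42 SE, adjusted p = 0.00209). *Wnt7b* (-1.37), the receptor *Fzd1* (-0.85) and the Wnt target *Axin2* (-0.60) were lower. Of 22 imprinted genes 6 (27.3%) were higher, among them *Dlk1* (2.05), *Grb10* (1.85), *Plagl1* (1.73) and *Mest* (1.66). Only 1 (4.55%), the cyclin kinase inhibitor *Cdkn1c* (-1.01), was lower.

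Cell cycle genes were higher in 67NR tumors. Of 35 genes of replication and mitosis, 23 were higher and 2 lower (median 0.70). The number lower was 3 without 66cl4 tumor 3 and 1 with any other tumor left out. *Cdc45*, a part of the replicative helicase, was at 9.14, 8.97 and 9.06 in 67NR tumors and 7.27, 7.35 and 7.41 in 66cl4 tumors (3.28-fold higher, adjusted p = 7.62e-05). The licensing factors *Cdc6* (1.81) and *Mcm4* (1.47) and the mitotic genes *Aurkb* (1.70), *Tpx2* (1.44) and *Plk1* (1.41) were higher by amounts well past their errors. In BALB/c mice 31 were higher and 0 lower (median 0.85). In BPTF KD tumors of NSG mice 16 were higher and 5 lower (median 0.29). For 6 of the 35 the line difference was lower in NSG than in BALB/c mice, and for 2 higher, by the test of that difference. Over all genes these shares were 7.11% and 6.19%.

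The list of p53 targets and cell cycle inhibitors did not move as 1 group. Of its 25 measured genes, 8 were higher and 9 lower, and in BALB/c mice 10 were higher and 6 lower. These counts cover both kinds of gene and do not stand for p53 targets alone. Higher in 67NR were *Mdm2*, which degrades p53 (11.07, 10.10 and 10.85 in 67NR tumors against 8.47, 8.86 and 9.01 in 66cl4 tumors, 1.89 ± 0.26 SE), *Phlda3* (1.89) and *Cdkn1a*, which encodes p21 (1.38). Lower were the other inhibitors *Cdkn1b* (-1.19) and *Cdkn2b* (-1.0) and the stress gene *Sesn1* (-1.53).

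Genes of hypoxia and glycolysis were mixed in NSG tumors. Of 26 measured, 11 were higher and 5 lower in 67NR (median 0.38). The number lower was 1 without 67NR tumor 1 or 66cl4 tumor 2, 2 without 67NR tumor 3 and 8 without 67NR tumor 2. *Adm*, a vasodilator peptide induced by low oxygen, was at 8.85, 10.71 and 8.95 in 67NR tumors against 6.40, 6.84 and 7.18 in 66cl4 tumors (2.70 ± 0.48 SE, adjusted p = 0.0041), with tumor 2 the highest. *Hk1* (2.03), *Aldoa* (1.12) and the oxygen sensor *Egln1* (1.06) were higher, and *Vegfa*, which drives vessel growth, was higher by 1.19 ± 0.16 SE. *Pfkp* was lower (-0.87). The largest decrease of the list was that of *Car9* (-1.48, adjusted p = 0.0326), named after its value was seen. *Car9* was at 7.12, 8.64 and 7.39 in 67NR tumors and 8.60, 9.17 and 9.83 in 66cl4 tumors, where the groups overlapped. In BALB/c mice 1 of these genes was higher and 14 were lower (median -0.57), and for 11 the line difference was greater in NSG than in BALB/c mice by the test of the difference itself.

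**Figure D2:**
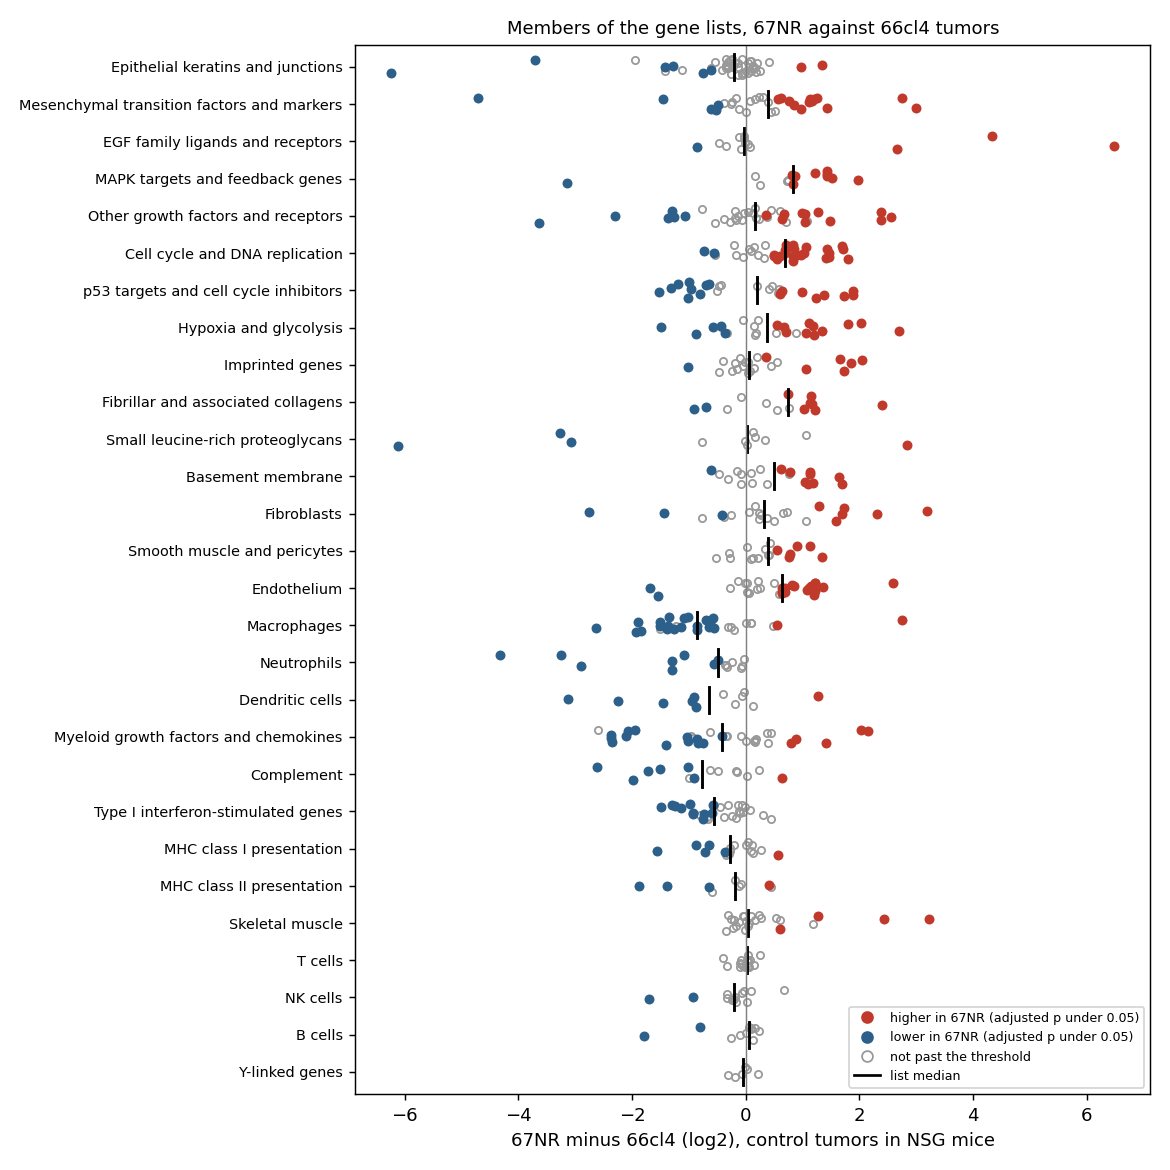
Difference between 67NR and 66cl4 control tumors of NSG mice (log2, horizontal axis) for the measured members of 28 gene lists. Filled points passed the threshold, higher (red) or lower (blue) in 67NR, open points did not, and black bars are list medians. Macrophage and neutrophil lists lie mostly left of 0, cell cycle, MAPK and endothelial lists mostly right of it.

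The small leucine-rich proteoglycans, which coat collagen fibrils, differed in both directions. Of 11 measured, 1 was higher and 3 were lower in 67NR tumors. *Omd* was at 5.95, 5.79 and 5.36 in 67NR tumors and 11.54, 12.04 and 11.87 in 66cl4 tumors (69.4-fold lower, adjusted p = 7.96e-06). *Ogn* was at 10.98, 11.72 and 10.56 in 67NR tumors against 14.13, 14.12 and 14.23 in 66cl4 tumors (-3.07 ± 0.26 SE) and *Aspn* at 8.72, 8.61 and 8.63 in 67NR tumors against 11.96, 11.70 and 12.10 in 66cl4 tumors (-3.27 ± 0.13 SE). These 3 genes are neighbours on chromosome 13, and all 3 were lower. *Bgn*, on the X chromosome, was at 11.31, 11.69 and 10.46 in 67NR tumors against 7.59, 8.72 and 8.62 in 66cl4 tumors (7.18-fold higher, adjusted p = 0.0013). *Dcn* was at 12.24, 11.99 and 11.61 in 67NR tumors and 12.09, 11.34 and 9.19 in 66cl4 tumors and did not pass (adjusted p = 0.251).

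Collagens were more often higher in 67NR tumors. Of 14 fibrillar and associated chains, 7 were higher and 2 lower (median 0.75). The number lower was 1 without 67NR tumor 1 and 0 without 67NR tumor 2 or 3 or 66cl4 tumor 1 or 2. *Col6a3* was at 10.42, 10.89 and 9.77 in 67NR tumors against 8.65, 8.17 and 7.07 in 66cl4 tumors (5.27-fold higher, adjusted p = 0.00408), and *Col1a2* at 12.88, 12.74 and 11.89 in 67NR tumors against 11.41, 11.50 and 11.10 in 66cl4 tumors (1.17 ± 0.26 SE, adjusted p = 0.0103). *Col5a1* (1.02), *Col5a3* (1.13), *Col6a2* (1.16) and *Col8a1* (1.22) were also higher, while *Col14a1* (-0.91) and *Col5a2* (-0.69) were lower. *Col1a1* (0.77) and *Col3a1* (0.56) did not pass (adjusted p = 0.194 and 0.354), and the groups overlapped for both. The other probe set of *Col3a1* gave -0.02. *Col1a1*, *Col3a1* and *Col5a2* were named after their values were seen. The other probe set of *Col5a3* gave -0.22 and that of *Col14a1* -0.12, and the 3 probe sets of *Col5a1* ran from 0.15 to 1.02. *Pcolce2*, which speeds the trimming of procollagen, was at 11.88, 11.86 and 12.10 in 67NR tumors and 8.89, 9.03 and 8.81 in 66cl4 tumors (8.21-fold higher), whereas its paralog *Pcolce* was lower (-0.66). In the basement membrane list 9 of 20 genes were higher and 1 lower, with *Col4a1* (1.18) and *Col4a2* (1.65), the main chains of its network, *Lamb1* (1.14), *Lamc1* (1.04) and *Fbln1* (1.69) higher and *Lama5* (-0.61) lower.

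Fibroblast markers gave no single direction. Of 22 genes, 6 (27.3%) were higher and 3 (13.6%) lower, against 17.9% and 18.3% of all genes, and in BALB/c mice 4 were higher and 6 lower. *Pdgfra*, a receptor that marks fibroblasts, was at 10.07, 9.70 and 9.57 in 67NR tumors and 9.59, 9.41 and 9.63 in 66cl4 tumors, where the groups overlapped. *Dpt*, which binds decorin, was at 10.37, 11.75 and 10.10 in 67NR tumors against 9.22, 8.24 and 7.82 in 66cl4 tumors (2.31 ± 0.49 SE). *Efemp1* was at 10.67, 11.81 and 9.95 in 67NR tumors against 8.72, 7.93 and 6.19 in 66cl4 tumors (3.20 ± 0.68 SE). *Fbln2* was at 10.0, 10.16 and 9.12 in 67NR tumors against 8.24, 7.93 and 7.90 in 66cl4 tumors (1.74 ± 0.26 SE). For all 3 the 67NR tumors lay above the 66cl4 tumors, of which tumor 3 was the lowest. *Islr* was at 6.63, 7.02 and 5.84 in 67NR tumors against 9.26, 9.30 and 9.19 in 66cl4 tumors (-2.75 ± 0.27 SE), and the chemokine *Cxcl12* was lower too (-1.44 ± 0.21 SE). Smooth muscle actin *Acta2* was higher in 67NR (1.35 ± 0.27 SE), although its other probe set gave 0.06. Of 17 pericyte and smooth muscle genes 6 were higher and 0 lower. With 1 tumor left out 3 to 5 were higher (3 without 66cl4 tumor 2), and 1 was lower without 67NR tumor 1 or 2 or 66cl4 tumor 3. *Myh11*, which marks mature smooth muscle, was at or under the highest Y-linked level in all 6 tumors.

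Of 27 matrix proteases and inhibitors 6 (22.2%) were higher and 6 (22.2%) lower, near the 17.9% and 18.3% of all genes. *Adamts5*, which cuts aggrecan, was at 6.99, 6.27 and 6.65 in 67NR tumors against 8.95, 9.18 and 9.12 in 66cl4 tumors (-2.45 ± 0.18 SE), and *Adamts1* was lower by a like amount (-2.41). The collagenase *Mmp13* (2.06 ± 0.42 SE) and the inhibitor *Timp1* (1.13 ± 0.23 SE) were higher. *Mmp2* and *Mmp14* did not pass (adjusted p = 0.0898 and 0.0553). Of 31 heparan sulfate enzymes 9 (29.0%) were higher and 5 (16.1%) lower, with 5 higher without 67NR tumor 1 or without 66cl4 tumor 2, and in BALB/c mice 5 were higher and 8 lower. The chain polymerases *Ext1* (1.52 ± 0.22 SE) and *Ext2* (1.07 ± 0.11 SE) and the epimerase *Glce* (1.52 ± 0.18 SE) were higher, and the lysosomal acetyltransferase *Hgsnat* (-1.57) and the sulfotransferase *Ndst2* (-0.56) lower. The other probe set of *Glce* gave -0.04. *Ndst3* did not pass (0.34). Of 14 proteoglycan cores 4 were higher and 0 lower, with *Gpc4* (1.93), *Sdc2* (1.67) and *Cd44*, which binds hyaluronan (1.45), in the lead.

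Vessel genes were higher in 67NR tumors. Of 30 endothelial genes 16 were higher and 2 lower (median 0.65), and in BALB/c mice 12 were higher and 1 lower. *Esm1*, a product of sprouting tip cells, was at 9.06, 8.72 and 9.08 in 67NR tumors against 5.65, 6.66 and 6.78 in 66cl4 tumors (6.02-fold higher, adjusted p = 0.000576). *Emcn* was at 8.28, 8.30 and 8.40 in 67NR tumors against 6.56, 7.09 and 7.21 in 66cl4 tumors (1.37 ± 0.17 SE). *Flt1* (1.16), *Cdh5* (1.23), *Pecam1* (1.22), *Plvap* (1.08), *Kdr* (0.65) and the endothelial synthase *Nos3* (1.21) were higher as well. The other probe set of *Cdh5* gave 0.06. Of the 2 lower genes, *Vwf*, stored in endothelial granules, was at 4.87, 4.15 and 4.65 in 67NR tumors and 6.40, 6.17 and 6.15 in 66cl4 tumors (adjusted p = 0.000589), all under the highest Y-linked level, and the lymphatic marker *Lyve1*, which macrophages also carry and which was named after its value was seen, was lower (-1.54 ± 0.34 SE).

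Most macrophage genes were lower in 67NR tumors. Of 31 macrophage genes 20 were lower and 2 higher (median -0.86). *Cd14*, which binds lipopolysaccharide, was at 10.97, 10.93 and 11.15 in 67NR tumors and at 12.88, 12.95 and 12.90 in 66cl4 tumors (3.71-fold lower, adjusted p = 5.7e-05). *Adgre1*, an adhesion receptor by which mouse macrophages are stained, was at 10.64, 10.45 and 10.43 in 67NR tumors against 12.12, 11.95 and 11.99 in 66cl4 tumors (2.85-fold lower). *Ccr2*, the receptor by which monocytes enter tissue, was at 8.50, 7.46 and 7.97 in 67NR tumors against 11.04, 10.54 and 10.28 in 66cl4 tumors (6.25-fold lower, adjusted p = 0.000517). *Cd68* (-0.65), *C1qa* (-0.69), *C1qb* (-1.02), *Tyrobp* (-1.26), *Itgam* (-1.51) and *Trem2* (-1.13) were lower too. A second probe set of *Trem2*, used when those shared between transcripts were left out, gave 0.05.

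*Cx3cr1* and the engulfment receptor *Mertk* (0.55), named after its value was seen, were the 2 macrophage genes that were higher. *Mertk* did not pass without 66cl4 tumor 2 (0.53, adjusted p = 0.0738). *Cx3cr1*, the fractalkine receptor of resident macrophages and patrolling monocytes, was at 10.94, 10.08 and 10.14 in 67NR tumors and at 6.94, 7.80 and 8.14 in 66cl4 tumors (6.77-fold higher, adjusted p = 0.00089). Its ligand *Cx3cl1* was higher too, at 8.47, 8.71 and 8.39 in 67NR tumors against 6.25, 6.34 and 6.54 in 66cl4 tumors (2.15 ± 0.13 SE). The other probe set of *Cx3cr1* gave 0.99, and the 3 probe sets of *Cx3cl1* ran from 0.15 to 2.15. In BALB/c mice the difference of *Cx3cr1* was 1.01 and did not pass (limma, adjusted p = 0.228). *Csf1r*, the growth factor receptor of macrophages, was at 12.24, 11.38 and 11.86 in 67NR tumors and 11.36, 11.57 and 12.25 in 66cl4 tumors and did not pass (0.10). *Il34*, one of its ligands, was higher in 67NR tumors (8.34, 8.28 and 8.49 in 67NR tumors against 7.10, 6.77 and 7.02 in 66cl4 tumors, adjusted p = 0.000274).

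Neutrophil genes were lower in 67NR tumors or did not pass. Of 15 measured, 8 were lower, 0 were higher and all 15 fitted differences were below 0 (median -0.48). In all 6 tumors 8 of the 15 stayed at or under the highest Y-linked level. In BALB/c mice 3 were lower and 0 higher (median -0.16). Which cells made these transcripts was not measured, and most macrophage genes were lower too. *S100a9* was at 7.58, 8.39 and 8.51 in 67NR tumors against 11.58, 11.12 and 11.51 in 66cl4 tumors (9.47-fold lower, adjusted p = 0.000174), and its partner *S100a8*, with which it forms calprotectin, was 7.46-fold lower. *Fpr2*, a receptor for formyl peptides, was at 7.14, 5.95 and 7.47 in 67NR tumors against 11.31, 11.38 and 10.82 in 66cl4 tumors (19.9-fold lower). *Csf3r*, the G-CSF receptor, was lower (-1.08 ± 0.17 SE).

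Many chemokines that act on these cells were lower too. Of 33 myeloid growth factors and chemokines 13 were lower and 5 higher (median -0.42). In BALB/c mice 6 were lower and 9 higher (median 0.17), and for 5 the line difference was lower and for 1 higher in NSG than in BALB/c mice by the test of that difference. *Cxcl5*, which acts on CXCR2, was at 7.89, 7.70 and 7.73 in 67NR tumors against 10.16, 9.91 and 10.36 in 66cl4 tumors (5.17-fold lower, adjusted p = 6.71e-05). *Ccl6* (-2.37), its neighbour *Ccl9* (-2.35), *Cxcl16* (-1.01) and the cytokine *Il1b* (-1.94) were lower, and *Csf2*, which encodes GM-CSF, was higher (0.88). *Cxcl13*, a chemokine for B cells, was at 5.30, 4.56 and 5.28 in 67NR tumors against 10.58, 9.17 and 9.34 in 66cl4 tumors (25.1-fold lower). Among genes chosen after their values were seen, 5 of 5 measured Clec4 lectin receptors in 1 cluster on chromosome 6 were lower (*Clec4e* -4.00, *Clec4b1* -3.22, *Clec4d* -2.81, *Clec4a2* -2.39, *Clec4n* -1.0).

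**Figure D3:**
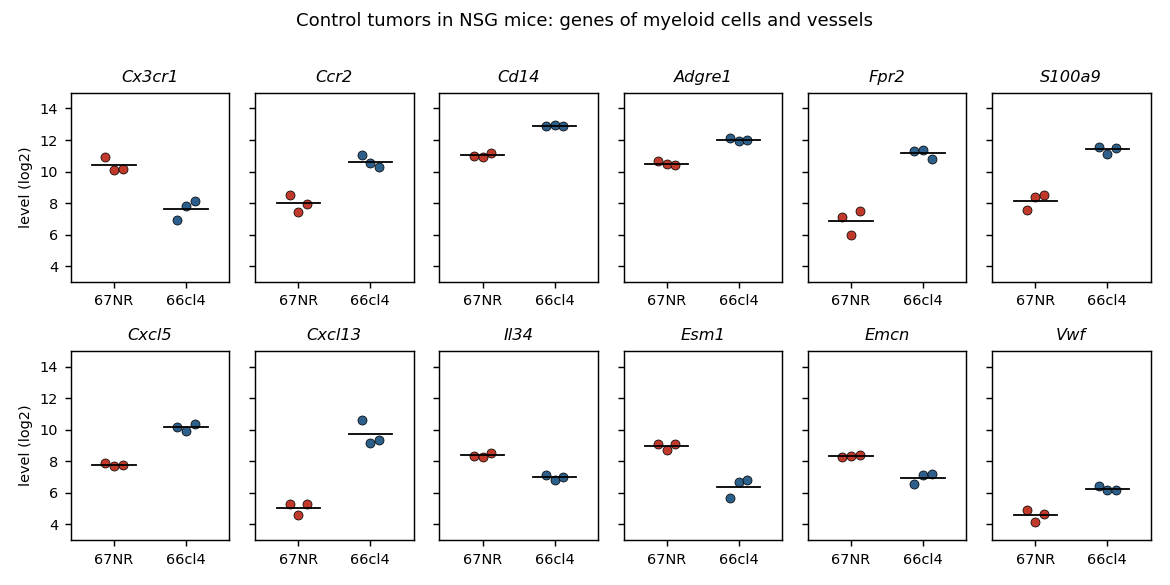
Levels (log2, vertical axis) of 12 genes of myeloid cells, their ligands and vessels in each of 3 67NR (left, red) and 3 66cl4 (right, blue) control tumors of NSG mice. Each point is 1 tumor and each line a group mean. *Cx3cr1* is higher in 67NR tumors while the other macrophage and neutrophil genes shown are lower.

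Among genes of antigen presentation, interferon and complement, more were lower than higher in 67NR tumors. *Clec10a* of dendritic cells and macrophages was at 7.74, 6.63 and 7.98 in 67NR tumors against 10.66, 9.74 and 11.30 in 66cl4 tumors (-3.12 ± 0.46 SE), and 6 of 12 dendritic cell genes were lower and 1 higher (1 lower and 1 higher in BALB/c mice). The class II genes *H2-Aa* (-1.87) and *H2-Ab1* (-1.39) were lower, and 3 of 9 genes of class II presentation were lower and 1 higher. *H2-K1* (-0.29), *H2-D1* (0.01) and *B2m* (0.14), the parts of class I molecules, did not pass, while the immunoproteasome subunit *Psmb8* was at 9.85, 9.47 and 9.99 in 67NR tumors against 11.56, 11.21 and 11.19 in 66cl4 tumors (-1.55 ± 0.17 SE). Of 29 type I interferon-stimulated genes 11 were lower and 0 higher, with the RNA sensor *Ifih1* at -1.48 and *Ifi27l2a* at -1.29. Of 14 complement genes 6 were lower and 1 higher, led by properdin *Cfp* (6.09-fold lower, adjusted p = 0.000276), *C1ra* (-1.98) and *C1s1* (-1.72).

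Most lymphocyte genes stayed at or under the highest Y-linked level in all 6 tumors. Of 17 T cell genes 0 passed in either direction and 16 stayed at or under that level. *Cd3e* was at 6.19, 6.32 and 6.15 in 67NR tumors and 5.93, 5.89 and 6.05 in 66cl4 tumors, and *Cd3g* at 4.44, 4.44 and 4.37 in 67NR tumors against 4.24, 4.48 and 4.77 in 66cl4 tumors. *Ncr1*, an NK cell receptor, was at 4.11, 4.42 and 4.11 in 67NR tumors and 4.22, 4.29 and 4.63 in 66cl4 tumors. Of 14 NK genes, *Klrd1* (-1.70) and *Eomes* (-0.93) were lower (14.3%). Of 11 B cell genes, *Ighm* (-1.78) and *Cd79b* (-0.81) were lower (18.2%), while *Ms4a1* (0.16) and *Cd79a* (0.01) did not pass. Neither share was above the 18.3% of all genes that were lower. *Ighm* was at 8.13, 7.54 and 7.71 in 67NR tumors against 9.13, 9.19 and 10.41 in 66cl4 tumors, and its 11 probe sets ran from -2.12 to 0.17.

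Other tissues of the fat pad varied from tumor to tumor. *Adipoq* was at 8.55, 4.63 and 7.74 in 67NR tumors and 11.71, 8.76 and 7.68 in 66cl4 tumors. Of 16 adipocyte genes 3 (18.8%) were lower and 1 higher, against 18.3% and 17.9% of all genes. *Cd36*, a fatty acid carrier, was at 8.53, 8.30 and 8.43 in 67NR tumors against 11.56, 10.14 and 9.70 in 66cl4 tumors (-2.05 ± 0.42 SE). *Pparg*, which drives fat cell formation, was at 5.54, 5.54 and 5.68 in 67NR tumors against 7.19, 6.33 and 6.71 in 66cl4 tumors (-1.16 ± 0.21 SE). Both were highest in 66cl4 tumor 1, which was also high in *Adipoq*, and both are also expressed in macrophages. Among 24 skeletal muscle genes 4 (16.7%, near the 17.9% of all genes) were higher and 0 lower, with 2 higher without 67NR tumor 1 or 3 or 66cl4 tumor 1 or 3. The muscle creatine kinase *Ckm* was at 6.93, 6.43 and 6.81 in 67NR tumors and 6.15, 7.69 and 6.30 in 66cl4 tumors, and *Tpm2*, also made by non-muscle cells, at 11.56, 12.20 and 11.41 in 67NR tumors against 9.03, 9.29 and 9.56 in 66cl4 tumors (2.43 ± 0.23 SE). Mast cell protease *Cpa3* was at 9.57, 7.5 and 10.56 in 67NR tumors and 9.71, 8.33 and 6.0 in 66cl4 tumors.

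Several of the largest differences lay outside these groups. *Rpl39l*, a ribosomal protein paralog best known from testis, was at 12.66, 13.57 and 12.50 in 67NR tumors and 6.62, 7.13 and 7.16 in 66cl4 tumors (61.4-fold higher, adjusted p = 3.43e-05). *Plet1*, a surface protein of epithelial progenitors, was at 9.79, 7.75 and 11.49 in 67NR tumors and at 5.29, 4.69 and 4.95 in 66cl4 tumors (26.0-fold higher, adjusted p = 0.00351), with a wide spread among 67NR tumors and -0.02 in its other probe set. Of 25 mammary luminal and milk genes, *Plet1* and 1 more were higher (8.0%) and *Cd24a* and 1 more were lower (8.0%). Both shares were under those of all genes. With 1 tumor left out 1 to 2 were higher and 1 to 3 lower. The membrane skeleton genes *Epb41l3* (4.92) and *Ank3* (4.89), the kinesin adaptor *Fez1* (4.70), the microtubule-binding kinase *Dclk1* (4.55), the ubiquitin ligase *Pdzrn3* (4.11), the zinc finger factor *Zfp423* (4.09), the matrix protein *Matn2* (4.00) and the peroxisomal oxidase *Hao1* (4.00) completed the 12 largest increases. Probe sets of *Dclk1* disagreed (-0.06 to 5.33). *Sema3e*, a guidance cue that binds plexin D1 on vessels, was at 4.09, 4.33 and 4.10 in 67NR tumors and 10.35, 10.42 and 10.58 in 66cl4 tumors (77.5-fold lower, adjusted p = 7.44e-07). Other large decreases were those of the homeobox factor *Hoxa10* (-4.28), the GTPase-activating *Arhgap6* (-4.02), the pheromone receptor gene *Vmn1r148* (-4.74), and *Pcdhb7* (-4.75) and *Pcdhb9* (-4.52) of the clustered protocadherins. Of 22 measured genes of that beta cluster 8 were lower and 0 higher, against 18.3% and 17.9% of all genes. The 8 include *Pcdhb7* and *Pcdhb9*, which were picked for their large decreases, as was *Hoxa10*. Of 9 measured genes of the Hoxa cluster, *Hoxa10* was the only one lower, and *Hoxa3* (0.51) and *Hoxa5* (1.05) were higher.

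The share of genes that differed was uneven across chromosomes, a pattern chosen after the values were seen. On chromosome 10, 32.1% of 561 genes were higher and 11.1% lower in 67NR tumors, and on chromosome 15, 29.0% of 496 were higher and 7.06% lower, against 17.9% and 18.3% of all genes. The reverse held on chromosome 14 (8.22% higher and 29.7% lower of 438), chromosome 3 (11.6% and 26.8% of 630) and chromosome 12 (12.5% and 23.4% of 384). Chromosome 16 was close to chromosome 12 (13.3% and 22.7% of 414), so the chromosomes named do not form a separate class. Among the 6198 genes brighter than the median, of which 24.0% were higher and 26.3% lower, the imbalance was larger, with 44.4% higher and 9.21% lower on chromosome 15 (median 0.33) and 8.25% higher and 47.6% lower on chromosome 14 (median -0.37). Among brighter genes the median of chromosome 16 was -0.2 and that of chromosome 12 -0.13. Medians over all genes of the chromosomes outside 3, 10, 12, 14 and 15 lay between -0.07 and 0.01. In BALB/c tumors, 26.4% were higher and 9.09% lower on chromosome 10, 19.2% and 6.85% on chromosome 15, 5.94% and 24.2% on chromosome 14, and 7.29% and 18.2% on chromosome 12. Chromosome 3 was nearer to all genes there, at 13.5% higher and 16.3% lower (13.5% and 12.6% of all genes). DNA copies were not measured. *Krt8* and *Krt18*, both much lower in 67NR tumors, lie on chromosome 15, while most other called genes there were higher.

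**Figure D4:**
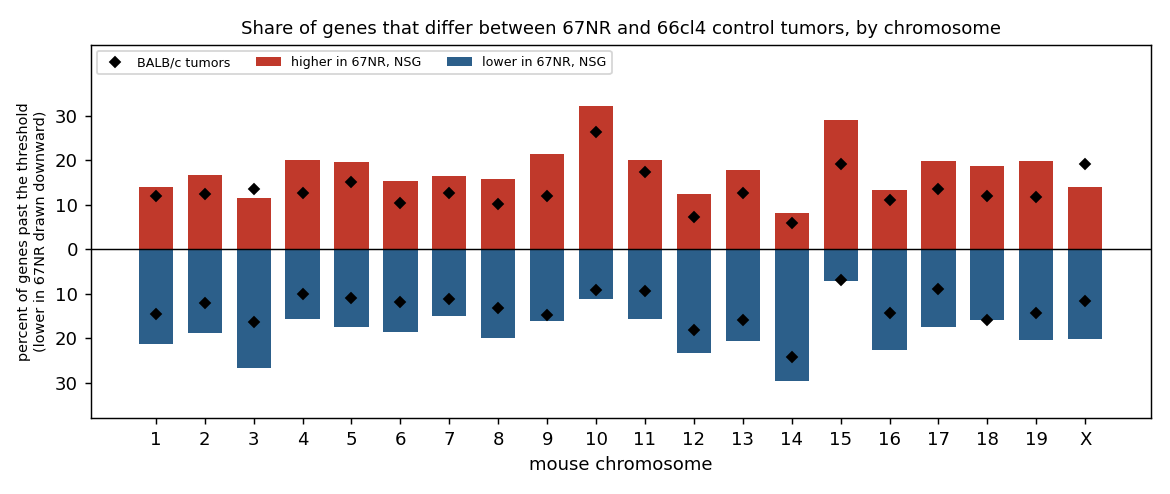
Percent of genes on each mouse chromosome (horizontal axis) that passed the threshold in control tumors of NSG mice, higher in 67NR drawn upward (red) and lower drawn downward (blue). Diamonds give the same percents in BALB/c control tumors. Chromosomes 10 and 15 stand out upward (32.1% and 29.0%) and chromosome 14 downward (29.7%).

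The line difference in NSG tumors was set beside that in 2 groups of tumors with no sample in common. In BPTF KD tumors of NSG mice, 4378 of the 4488 genes (97.5%) had the same sign, and 3427 passed the same way, 76.4% of the genes called in NSG controls and 65.1% of the 5265 called in BPTF KD tumors (42.5% of all genes, 20.4% higher and 22.1% lower). In BALB/c control tumors, 3495 (77.9%) had the same sign and 1856 passed the same way, 41.4% of the NSG calls and 57.3% of the 3239 BALB/c calls (26.1% of all genes), while 91 passed the opposite way. *Ereg* (7.68), *Btc* (6.23), *Krt8* (-6.47), *Sema3e* (-5.48) and *Omd* (-6.80) had large differences in BALB/c tumors as well. *Bptf* itself was at 10.17, 9.37 and 9.75 in 67NR tumors and 9.15, 9.18 and 9.14 in 66cl4 tumors of NSG mice (0.61 ± 0.19 SE, adjusted p = 0.042), a call that was lost in 5 of 6 fits that left out 1 tumor.

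Whether a line difference depended on the host was tested on the 12 control tumors. For 767 genes (6.19%) 67NR minus 66cl4 was higher in NSG than in BALB/c mice, for 881 (7.11%) it was lower, and for 925 of these 1648 (13.3% of all genes tested) the fitted signs in the 2 hosts were opposite. Collagens and other matrix genes were among them. *Col1a2* was higher in 67NR tumors by 1.17 log2 in NSG mice and lower (-1.82) in BALB/c mice, a difference between hosts of 2.99 (adjusted p = 0.00766). *Bgn* stood at 2.84 in NSG and -1.99 in BALB/c mice, *Col6a2* at 1.16 and -1.48, *Fn1* at 1.12 and -1.13, and *Fbln2* at 1.74 and -0.65. Of 14 collagens, 7 were higher and 2 lower in NSG, 1 was higher and 7 lower in BALB/c, and for 6 the difference between hosts passed. *Arg1*, the arginase of alternatively activated macrophages, did not pass in NSG mice (9.49, 10.82 and 10.54 in 67NR tumors and 10.85, 10.97 and 9.80 in 66cl4 tumors), but was lower in 67NR tumors of BALB/c mice (-5.34). *Rpl39l* (5.94 in NSG, 0.52 in BALB/c) and *Matn2* (4.00 and 0.26) differed more between the lines in NSG mice (adjusted p = 0.00239 and 0.00766 for the difference between hosts).

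Skeletal muscle genes contrasted between hosts as well. In BALB/c mice 21 of 24 skeletal muscle genes were lower in 67NR tumors and 2 higher (median -2.13), whereas in NSG mice 4 were higher and 0 lower (median 0.05), and for 20 the difference between hosts passed. *Myh4*, a fast myosin, was at 0.04 in NSG and -5.91 in BALB/c mice. Muscle genes thus moved with the difference between hosts, and their part in the other host differences was not tested. The line difference was more negative in NSG than in BALB/c mice for *Fpr2* (-4.32 and -1.69), *S100a8* (-2.90 and -0.76), *Ccr2* (-2.64 and -0.80) and *Il1b* (-1.94 and 0.37), each past the threshold for the difference. The count of genes with a difference between hosts was 439 without BALB/c 67NR tumor 2, 2923 without BALB/c 66cl4 tumor 1 and between these with other tumors left out, and 0 (1443 at an unadjusted p under 0.05) in limma with the RNA integrity measure as a covariate.

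**Figure D5:**
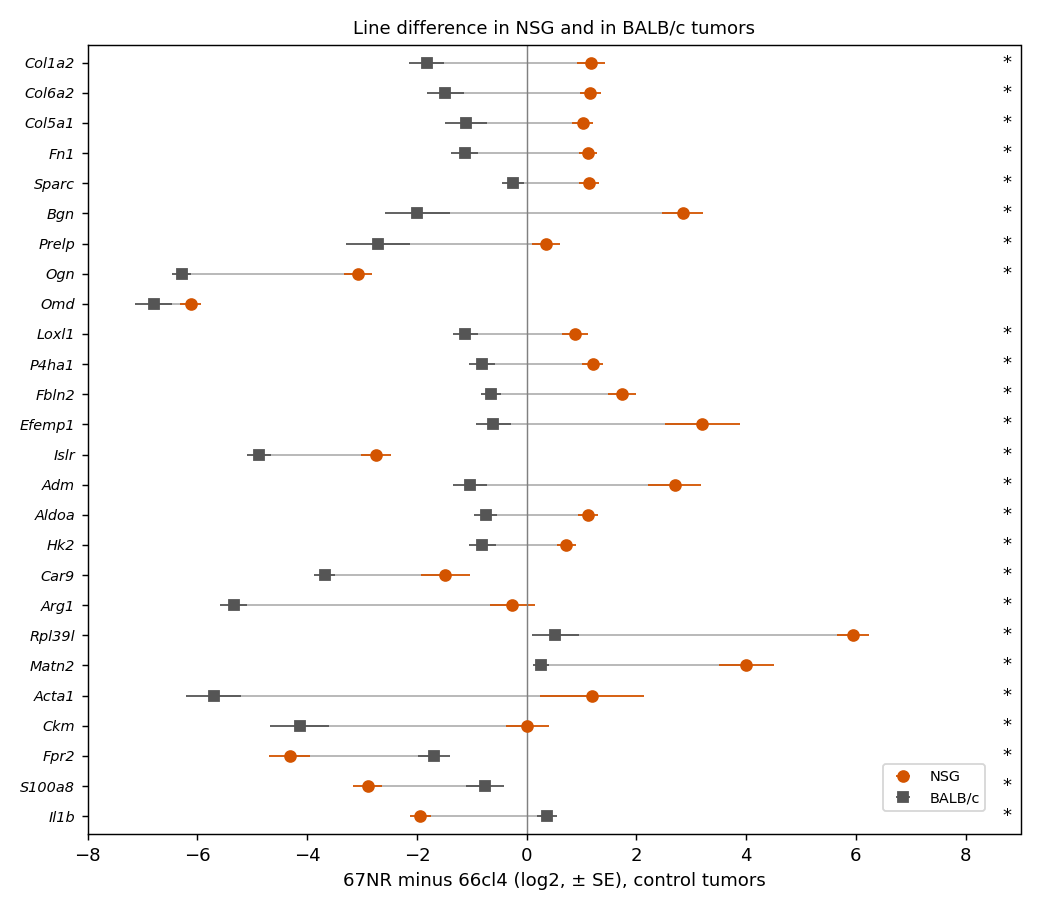
Line difference (67NR minus 66cl4, log2, with SE bars) of 26 genes in control tumors of NSG mice (orange circles) and BALB/c mice (grey squares). Asterisks mark genes whose difference between hosts passed the threshold. The 3 collagen genes shown and *Aldoa* lie right of 0 in NSG and left of it in BALB/c mice, while *Omd* is far left in both.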

How the data were processed

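RNA (500 ng per tumor) was hybridized to Affymetrix mouse expression arrays, 1 per tumor. The deposited values are log2 levels that the authors made with RMA (background correction, quantile normalization, summary per probe set; version and filters not given in the sources used here). They hold 22690 probe sets for 36 tumors. Symbols came from the platform annotation, updated through Entrez IDs to RefSeq: 20393 probe sets had 1 symbol, 691 several and 1606 none. The brightest probe set stood for each of 12394 genes. The 3 67NR and 3 66cl4 control tumors of NSG mice were compared with limma 3.58.1 (R 4.3.3), and p values were adjusted after Benjamini and Hochberg across the 12394 genes (threshold 0.05). The difference between hosts was an interaction fitted on 12 control tumors. Tested on simulated data with 200 changed genes, the NSG comparison recovered 73.0% of changes of 1 log2 unit and 96.5% of changes of 2. In the tumors 36.2% of genes passed, and the adjusted threshold depends on that share. These rates therefore do not measure the recovery in the tumors themselves. With 1 array per tumor, the number of arrays limits the precision. Named genes were the 12 largest changes in each direction without overlap, up to 8 per list with the smallest p, cell type markers, 8 genes for the host difference, and *Bptf*, *Ndst3*, *H2-K1*, *H2-D1*, *B2m*, *Mmp2* and *Mmp14*. Members and the 40 gene lists were chosen with earlier results of these data known. Chromosome shares, with only the brighter genes as an alternative, were added after seeing the data. Other alternatives were a t-test, a fit of all tumors, a replicate block, array weights, an RNA integrity covariate, other probe set rules and scalings, and leaving out each tumor.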

Additional observations from a re-analysis of the deposited data

Results flagged for a closer look

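For 86 of the 216 measured genes named here, the difference between 67NR and 66cl4 tumors depended on the host by a test of that difference (limma interaction on 12 control tumors, adjusted p under 0.05). *Car9*, *Col1a1*, *Col3a1* and *Col5a2* are not counted among the 216. Over all genes the share was 13.3% (6.19% higher and 7.11% lower in NSG), and the named genes were chosen in part for their size of change or for this difference, so their count does not stand for other genes. The line difference in NSG minus that in BALB/c mice was above 0 for 57 and below 0 for 29 of them, and the signs in the hosts were opposite for 33. The values below are that double difference, in log2. Among genes of muscle, fat and smooth muscle it passed for *Acta1* (6.90), *Myh4* (5.95), *Ckm* (4.15), *Tpm2* (1.47), *Acta2* (1.83), *Cd36* (-2.67) and *Pparg* (-1.65). For collagens and their processing these were *Col1a2* (2.99), *Col5a1* (2.13), *Col5a3* (1.07), *Col6a2* (2.64), *Col14a1* (1.25), *Pcolce* (1.41) and *Lox* (2.43). Genes of other matrix, adhesion and proteoglycans held *Bgn* (4.83), *Ogn* (3.21), *Efemp1* (3.81), *Fbln2* (2.38), *Fn1* (2.25), *Sparc* (1.39), *Islr* (2.12), *Matn2* (3.74), *Lamb1* (0.86), *Lamc1* (1.28), *Sdc2* (1.68), *Ext1* (1.38), *Hgsnat* (-1.0), *Itgb4* (1.08) and *Cdh2* (0.98). Among genes of proteases it passed for *Adamts5* (1.81), *Mmp2* (2.44) and *Mmp14* (0.80). For macrophages and dendritic cells these were *Arg1* (5.09), *Mertk* (1.97), *Ccr2* (-1.84), *Cd14* (-0.57), *Adgre1* (-0.57), *Tyrobp* (-0.66), *Clec10a* (-2.50), *Clec4a2* (-1.76), *Clec4b1* (-2.19), *Clec4d* (-2.45) and *Clec4n* (-1.21). Genes of neutrophils and cytokines held *Fpr2* (-2.62), *S100a8* (-2.14), *S100a9* (-2.02), *Il1b* (-2.31), *Cxcl5* (-1.02) and *Cxcl16* (-0.94). Among genes of lymphocytes, antigen processing and complement it passed for *Ighm* (-2.10), *Cd79b* (-1.0), *Klrd1* (-2.68), *Psmb8* (-0.94) and *C1s1* (0.87). For vessels and fibroblast receptors these were *Pecam1* (1.13), *Nos3* (-0.85), *Vwf* (-1.25) and *Pdgfra* (1.96). Genes of low oxygen and glycolysis held *Adm* (3.73), *Aldoa* (1.87), *Hk1* (1.36) and *Egln1* (1.28). Among genes of growth factors and signalling it passed for *Btc* (-1.90), *Kitl* (-1.09), *Fgfr1* (1.65), *Igf2r* (1.43), *Inhba* (1.25), *Bmp4* (1.07), *Wnt5a* (2.49), *Etv5* (1.12) and *Pmepa1* (2.43). For transcription factors and imprinted genes these were *Prrx2* (1.74), *Foxc2* (2.49), *Snai2* (1.03), *Hoxa5* (1.2), *Plagl1* (2.67), *Dlk1* (1.80), *Grb10* (1.30) and *Zfp991* (-2.72). Genes of the cell cycle held *Cdc45* (0.51) and *Mcm4* (0.71), while for 6 others of that list, not named here, it passed below 0. Among genes of other functions it passed for *Rpl39l* (5.42), *Dnm1* (2.93), *Pacc1* (-1.39), *Pdzrn3* (2.75) and *Cd24a* (-1.29). Groups of 3 tumors are too small for the test of single outlying samples. The causes of these differences were not tested, and muscle genes moved with the host as given above.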

How the results depend on the processing

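Of 4488 genes called between 67NR and 66cl4 control tumors in NSG mice, 3380 to 4311 were called with 1 tumor left out, 99 with the RNA integrity measure as a covariate, 1423 at 1 log2 unit or more, and 7759 when all probe sets were counted. For the difference between hosts (1648 genes) the counts were 439 to 2923 with 1 tumor left out, 74 in a fit of all 36 tumors, 3024 over all probe sets, 4210 with array weights, 836 at 1 log2 unit or more and 0 with the covariate (1443 at an unadjusted p under 0.05 in limma). The BALB/c count (3239) was 1861 by the methods' t-test, 1163 at 1 log2 unit or more and 2147 to 3618 with 1 tumor left out. The BPTF KD count (5265) was 1220 at 1 log2 unit or more. The RNA integrity difference was -0.18 to -0.13 with 1 tumor left out. With the replicate number as a block the counts were 3952 (NSG), 1694 (host difference), 2953 (BALB/c) and 5700 (BPTF KD). Same-numbered tumors did not deviate together (r -0.0567, -0.156 and -0.0177), so the numbers do not pair the tumors. Of 183 named genes past the threshold (*Car9* and *Col5a2* not counted), 156 lost their call with the RNA integrity covariate and 1 other, *Tjp1*, turned sign. By the methods' t-test 31 lost their call, and 175 kept it in all 6 fits with 1 tumor left out. The others were *Bptf*, *Col14a1*, *Itgb4*, *Kdr*, *Klrd1*, *Mertk*, *Pcolce* and *Tjp1*. Without 67NR tumor 1 *Kdr* was at 0.53 (adjusted p = 0.0609), and *Klrd1* at -1.67, neither past the threshold, and *Klrd1* also missed it without 67NR tumor 2 or 66cl4 tumor 2. *Itgb4* missed it without 67NR tumor 1 or 3 or 66cl4 tumor 1 or 2, and *Tjp1* without 67NR tumor 2 or 3 or 66cl4 tumor 1 or 2. Of the fits with 1 tumor left out, *Col14a1* passed only in that without 66cl4 tumor 3 (-1.22, adjusted p = 0.00322), and *Bptf* only in that without 67NR tumor 2 (0.80, adjusted p = 0.00747). *Pcolce* was lost without 67NR tumor 2 or 3, or 66cl4 tumor 2 or 3. Signs turned for *Tjp1* with the RNA integrity covariate (0.02) and for *Trem2* without probe sets shared between transcripts (0.05). Levels near the array background limit what can be read from dim genes.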
